A study of Mus musculus with 2 samples.

Results

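The Mmp13 Hilpda macrophages of MC38 tumours were 785 of 11573 cells, 440 in the vehicle library and 345 in the LC427 library. They were chosen by measured RNA. A cell was a droplet barcode with at least 1000 UMIs (unique molecular identifiers, each marking 1 captured RNA molecule), at least 400 genes and at most 10% mitochondrial UMIs. A macrophage gate of 8619 cells took those with a UMI of Csf1r, C1qa or Lyz2 and none of Cd3e or Ncr1. Within the gate, the detected genes of 5 sets were counted in each cell. A member had at least 2 of Mmp13, Hilpda, Pmp22, Fabp5 and Mt2, and more genes of that set than of each other set (Cbr2 Gas6 Folr2 Fcrls Vcam1; Dpep2 Trem1 F10 Cdh1 Clec5a; Ly6i Fpr2 Plac8 Nos2 Ly6c2; Pf4 Gatm Ckb Cx3cr1 Itgb5). Levels of members against other gate cells are therefore descriptions, with no test.

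The tumours grew from MC38, a mouse colon carcinoma line, in female C57BL/6 hosts and were taken on day 14. One group had been given vehicle and the other LC427, a compound for which the labels give a code name alone. Both groups carried the same tumour line, the labels give no engineered allele in the mice, and their age, their number and the dose are not given in the sources used here. CD45-positive cells (leukocytes) were selected on beads after digestion and removal of dead cells, and RNA was read from its 5′ end in droplets. Each group was 1 library, so no difference between vehicle and LC427 has a replicate check, and treatment cannot be told apart from library.

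Depth was 33711726 UMIs in the vehicle library and 28732435 in that of LC427. Gate cells were deeper in vehicle, with a median of 3680 UMIs against 2432.5. The libraries shared 49 cell barcodes, which included the barcodes of 12 members, and no member was in both libraries. Doublet scoring made 0 calls at its automatic threshold in both libraries and was taken not to have worked. Intervals are at 95% and cover counting error alone. UMIs of 1 cell are not independent, so the intervals are too narrow.

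The label was checked against marker genes, and 98 members did not carry it. Those 98 (52 in vehicle, 46 in LC427) held at least 2 of 10 tumour or stroma genes. Their median depth was 22244.5 UMIs in vehicle and 13042.5 in LC427, and they made up 38.9% and 40.6% of all member UMIs. A median of 1 of 10 macrophage and monocyte markers was detected in them. They had 2.67 CPM (UMIs of a gene per 1000000 UMIs of the summed cells) of Mmp13 in vehicle and 16.6 in LC427. Tm4sf1, a membrane protein of carcinoma cells and endothelium, stood at 619 and 557 CPM, and Ptprc, which encodes CD45, at 24.0 and 24.2. In vehicle they also carried Gzma, a granzyme of killer lymphocytes, at 1462 CPM, against 0 UMIs in LC427. Of the 5 genes of the rule Mt2 was the highest in them, at 733 and 684 CPM.

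The other 687 members (388 in vehicle, 299 in LC427) carried macrophage markers together with the genes of the name. They are called the members from here on, are compared with gate cells that likewise lack such genes, and values over all 785 are named as such. A median of 6 of 10 macrophage and monocyte markers was detected per cell in vehicle and 5 in LC427. Lyz2 (lysozyme) was detected in 97.7% and 97.3% of them, C1qa (complement) in 83.8% and 66.9%, and Csf1r (the CSF1 receptor) in 54.9% and 47.2%. The gate required a UMI of Lyz2, C1qa or Csf1r, so these shares and the marker median are in part set by it. The summed level of Mmp13, Hilpda, Hmox1, Spp1, Fabp5 and Mmp12 was 6186 CPM in vehicle and 5440 in LC427, against 2157 and 1329 in the rest of the gate. Empty droplets (barcodes of 10 to 100 UMIs) had 1125 and 884. Mmp13, Hilpda and Fabp5 are genes of the rule, so the height of this sum is in part set by it. The 10 tumour or stroma genes summed to 36.7 and 31.0 CPM, with Krt8, Epcam and Cdh5 at 0 UMIs in both libraries. That low sum follows from the removal of cells by these same genes, and the rest of the gate had 32.1 and 34.8. T cell markers summed to 28.3 and 48.5, NK cell markers to 11.9 and 22.7, and B cell markers to 13.6 and 7.23, with Cd3e and Ncr1 at 0 by the rule.

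Tumour macrophages in poorly perfused tissue are known to switch on genes of the hypoxia-inducible factors, which shift cells to glycolysis, to vessel growth factors and to the storage of lipid droplets. Hilpda, a target of these factors, inhibits the lipase that empties lipid droplets. Mmp13 is a secreted collagenase that cuts fibrillar collagen, Mmp12 is the macrophage elastase, and Mt2 and Mt1 are metallothioneins, small proteins that bind zinc and buffer metal and oxidative stress. Hmox1 breaks down haem, and Fabp5 carries fatty acids.

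Stretches upstream of the start sites of 4 genes are shown because the results turn on these genes and each stretch holds a motif of the pathway it belongs to. Sequences are from RefSeq on GRCm38.p6, 5′ to 3′ on the gene's strand, with the motif in capitals. Of 24 genes looked up, 19 matched. The Mmp13 stretch (chr9:7272264-7272513, plus strand) holds 1 AP-1 motif, TGACTCA, 35 bases before the start, and 1 interferon response element, left in lower case. The Hilpda stretch is a window of 30 bases (chr6:29272571-29272600, plus strand) before the second listed start, with the hypoxia response core ACGTG. The promoter of the first listed Hilpda start holds no such core. The Mt2 stretch (chr8:94172368-94172617, plus strand) holds 3 metal response elements and, in lower case where they do not overlap these, 1 hypoxia core and 1 AP-1 motif. The Rsad2 stretch (chr12:26456453-26456702, minus strand) holds 1 interferon response element 120 bases before the start and, in lower case, 1 hypoxia core and 1 AP-1 motif. Rsad2 encodes viperin, an antiviral protein induced by type I interferon.
Mmp13: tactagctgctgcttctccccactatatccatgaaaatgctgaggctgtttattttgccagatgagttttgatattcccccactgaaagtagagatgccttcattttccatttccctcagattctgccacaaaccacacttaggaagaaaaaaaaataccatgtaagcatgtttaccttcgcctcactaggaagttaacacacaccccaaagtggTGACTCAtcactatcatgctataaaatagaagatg
Hilpda: gatggccagcggACGTGccccagggcgagc
Mt2: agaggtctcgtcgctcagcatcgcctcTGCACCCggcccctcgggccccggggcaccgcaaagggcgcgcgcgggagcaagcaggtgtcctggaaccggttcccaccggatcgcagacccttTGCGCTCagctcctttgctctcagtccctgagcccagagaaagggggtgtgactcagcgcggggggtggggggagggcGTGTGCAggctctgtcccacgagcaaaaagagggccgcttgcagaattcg
Rsad2: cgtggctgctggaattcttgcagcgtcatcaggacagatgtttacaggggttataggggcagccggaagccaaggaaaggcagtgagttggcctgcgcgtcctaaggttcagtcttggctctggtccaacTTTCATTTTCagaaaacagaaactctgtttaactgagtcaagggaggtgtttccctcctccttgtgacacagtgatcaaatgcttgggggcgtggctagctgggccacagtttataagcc

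Motifs were searched on both strands in the 250 bases before a start. The hypoxia core (ACGTG or GCGTG) was in 38.6% of 32851 promoters, AP-1 (TGACTCA or TGAGTCA) in 4.46%, the metal response element (TGCACNC or TGCGCNC) in 21.4% and the interferon response element (GAAA, any 2 bases, GAAA) in 2.98%. By first start, 14 of 18 matched hypoxia response genes held the core (77.8%), against 38.6% of 27025 genes. The core was not particular to that list, since 68.8% of glycolysis and 54.5% of proliferation genes held it. Over the lists its share ran from 0% (MHC class II genes among them) to 77.8%. The metal response element was also frequent in hypoxia response genes, in 10 of 18 (55.6%) against 21.3% of all genes. The interferon element was in 5 of 13 matched type I interferon genes (38.5%) and in 7 of 13 matched interferon gamma genes (53.8%), against 3.04% of all genes. A match is a run of letters in the window and not a measured binding site.

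Mmp13 (ENSMUSG00000050578) led the genes of at least 50 CPM when ranked by the smaller of the 2 libraries' ratios of members to other gate cells. It stood at 257 CPM in vehicle members (234 to 282) and 296 in LC427 members (263 to 333), against 25.4 and 25.2 in the rest of the gate. Over all 785 cells, with the 98 included, Mmp13 was 158 and 183. Among gate cells the lowest levels were in cells led by the Ly6i Nos2 set, 7.12 and 7.41. Cells in which no set led had 38.7 and 35.8, and cells led by the Cbr2 Folr2 set 21.8 and 48.2, the latter from 9 UMIs. The intervals of these last groups overlap in LC427. The rule reads Mmp13, so the distance of the members from these groups is in part set by it.

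An Mmp13 UMI was seen in 31.7% of vehicle members and 29.4% of LC427 members. With each cell thinned to 1000 UMIs, so that depth is equal, the shares were 14.7% and 19.1%. In the rest of the gate they were 1.62% and 1.67%, and in Cd3e-positive cells without a gate gene, which should lack Mmp13, 0 of 331 and 1 of 322 (0.311%). Before thinning, members had a median of 3639 and 2791 UMIs and the Cd3e-positive cells 3108 and 1868.5. The 0 of 331 allows a share of up to 1.11% by the exact interval. Free RNA gave Mmp13 at 15.7 and 20.2 CPM in empty droplets.

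Before thinning, the other 4 genes of the rule were each detected in more members than Mmp13. After thinning this did not hold for Pmp22 in LC427. It was then in 16.0% of vehicle and 17.4% of LC427 members, against 14.7% and 19.1% for Mmp13, with overlapping intervals. Fabp5, detected in 88.7% of vehicle and 71.6% of LC427 members, stood at 1158 and 759 CPM, against 415 and 142 in the rest of the gate. Hilpda (ENSMUSG00000043421), detected in 78.9% and 66.6%, stood at 537 and 446 against 165 and 66.7. Mt2 (ENSMUSG00000031762), detected in 70.1% and 76.3%, stood at 535 and 793 against 112 and 130. Pmp22 (ENSMUSG00000018217), a membrane protein best known from myelin, was detected in 37.4% and 33.1% and stood at 120 and 146 against 34.4 and 20.7. The rest of the gate was close to the empty droplets for Pmp22, at 33.6 and 29.6. Hilpda was also seen outside macrophages: after thinning it was detected in 11.8% and 6.83% of Cd3e-positive cells and in 11.5% and 4.92% of the rest of the gate, against 37.9% and 32.1% of members. Mmp13 and Hilpda were detected together in 26.0% of vehicle members and 18.7% of LC427 members.

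**Figure D1:**
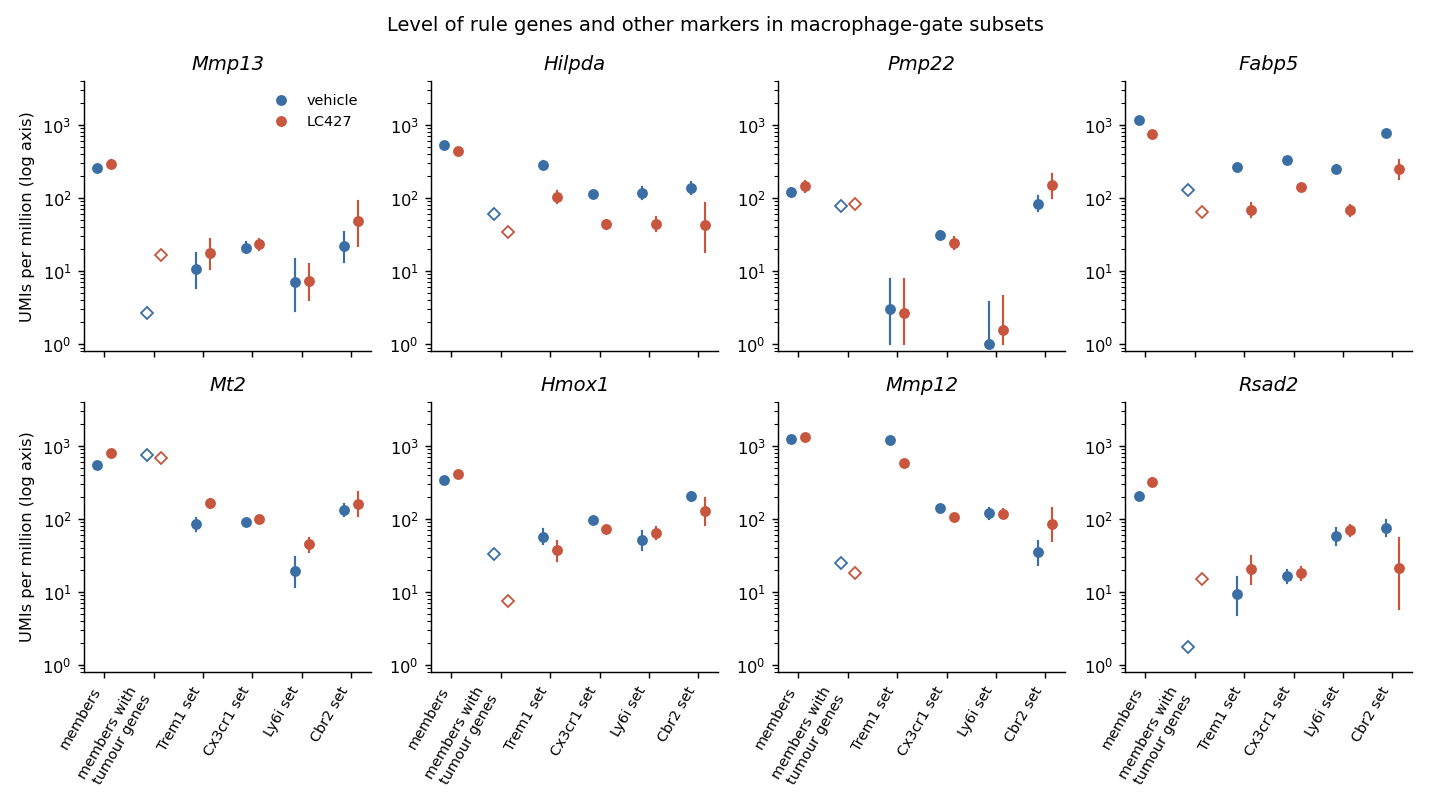
Level of 8 genes, in CPM on a log axis, in the members, in the members with tumour or stroma genes (open diamonds, no interval) and in gate cells led by the other 4 sets, for vehicle (blue) and LC427 (red). Bars are 95% Poisson intervals, and values under 1, such as the 0 of Pmp22 in vehicle cells of the Ly6i Nos2 set, are drawn at 1. Mmp13, a gene of the rule, is at 257 and 296 in members, Mmp12 is nearly as high in the Trem1 set in vehicle, and Mt2 is the 1 gene shown that the members with tumour genes carry at the level of the members.

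The 3 marker genes that the rule did not use were each higher in the members than in cells led by any other set, in both libraries. Hmox1 (ENSMUSG00000005413) stood at 334 CPM in vehicle members and 404 in LC427 members, against 113 and 77.4 in the rest of the gate, 2.97-fold (2.70 to 3.26) and 5.22-fold (4.63 to 5.87) higher. Mmp12 (ENSMUSG00000049723) stood at 1229 and 1327 against 285 and 235, 4.31-fold and 5.65-fold higher. It was not particular to the members, since vehicle cells of the Trem1 Clec5a set had 1208 and LC427 cells of that set 570. Spp1, the secreted phosphoprotein osteopontin, stood at 2670 and 2206 against 1154 and 783, and the Trem1 Clec5a set again came close, at 2326 and 1975. Arg1, an enzyme of suppressive macrophages, stood at 3838 and 2953 against 2613 and 1490.

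Over all genes tested, 3.05% were at least 1.5-fold higher in members than in the rest of the gate in both libraries (329 of 10775) and 8.25% at least 1.5-fold lower. These shares are given for scale, since the rule chose the members on RNA of the same cells. Over all 785 cells the shares were 13.5% and 7.71% of 11397 genes, and the higher side was led by Sox9 (9.88-fold and 12.7-fold), followed by other genes of tumour or stroma such as Serpinh1, a collagen chaperone, and Cald1 (10.9-fold and 6.75-fold). Without the 98 cells Gpnmb led the genes outside the rule sets. Gpnmb, a membrane glycoprotein of lipid-laden macrophages, was 7.78-fold and 7.99-fold higher, at 75.1 and 101 CPM. Fabp4, a second fatty acid carrier, was 6.55-fold and 6.98-fold higher, at 57.6 and 53.7. Rsad2 (ENSMUSG00000020641), whose promoter is printed above, was 6.45-fold and 8.96-fold higher, at 201 and 317. The stress-induced chaperone genes Hspa1b (3.56-fold and 5.08-fold) and Hspa1a (3.05-fold and 4.83-fold) are near-identical copies, so reads may have been split between them. LC427 cells of the Cbr2 Folr2 set had more than the members of Gpnmb (107 CPM), Hspa1b (375 against 142) and Hspa1a (166 against 113).

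The lower side was led by Cyp4f18, a cytochrome P450, at 44.6 and 76.4 CPM in members against 104 and 172 in the rest of the gate. Ccr2, the receptor that brings monocytes into tissue, stood at 63.8 and 150 CPM in members against 223 and 328 in the rest of the gate. That was a ratio of 0.286 and 0.456, with both member levels below the 111 and 189 of empty droplets. Cxcl9, a T cell chemokine induced by interferon gamma, stood at 409 and 372 CPM in members, below the 530 and 729 of empty droplets. Its ratio was 0.562 and 0.384. Tgfbi, a matrix protein abundant in monocytes, had 0.532 and 0.433, and Naaa, a lysosomal amidase, 0.464 and 0.345. Retnla, a secreted protein of alternatively activated macrophages, had 0.505 and 0.346, at 95.5 and 39.3 CPM, below the 184 and 140 of empty droplets.

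**Figure D2:**
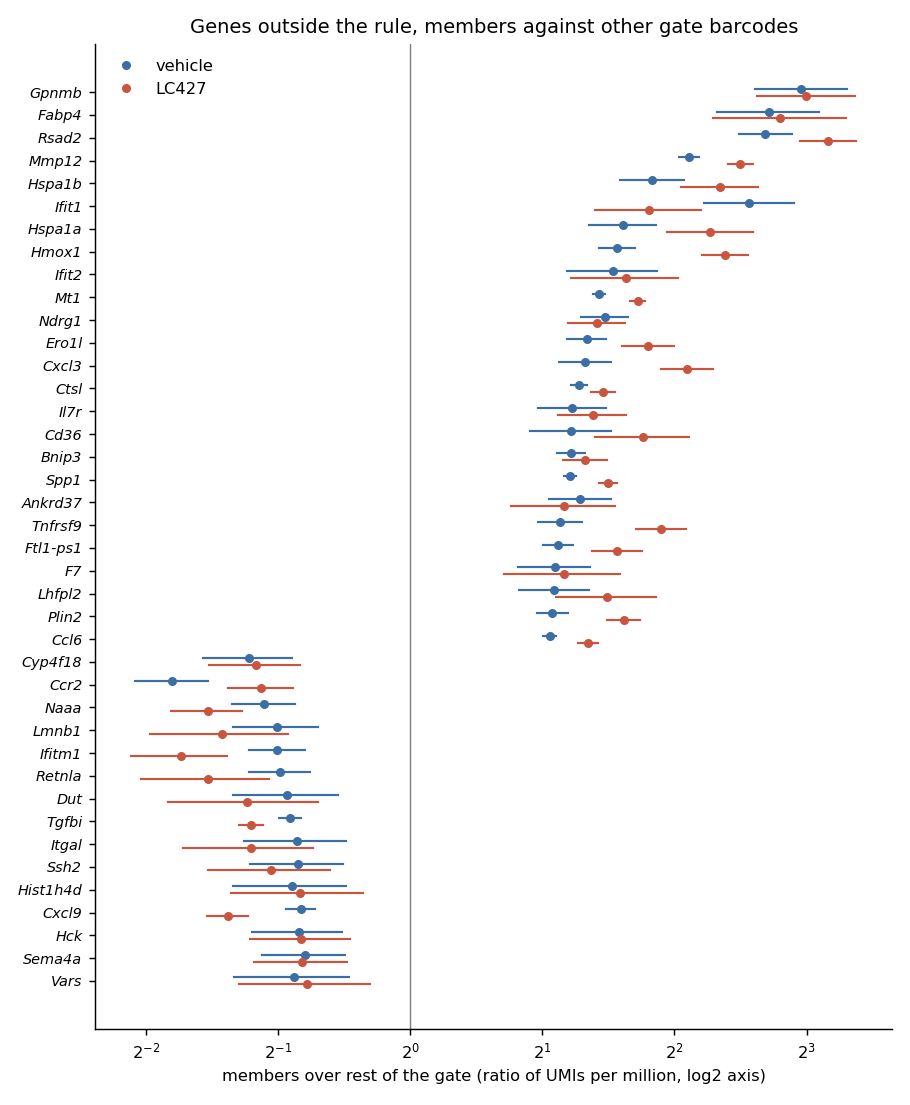
Ratio of members to the rest of the gate, on a log2 axis, for the 25 highest and 15 lowest genes outside the 5 sets, in vehicle (blue) and LC427 (red), with 95% counting intervals. Gpnmb at 7.78 and 7.99 leads the higher side, Ccr2 at 0.286 is lowest in vehicle, and each gene shown lies on the same side of 1 in both libraries by construction of the ranking.

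The hypoxia response list showed 12 of 18 measured genes at least 1.5-fold higher in members in both libraries and none lower. Over all genes 3.05% were higher and 8.25% lower by that measure. Bnip3, a mitophagy receptor, was 2.32-fold and 2.50-fold higher, Vegfa, the vessel growth factor, 1.56-fold and 2.35-fold, Ero1l, an oxidase of protein folding, 2.52-fold and 3.49-fold, and Ndrg1 2.77-fold and 2.66-fold. Of 16 glycolysis genes 1 passed 1.5-fold in both libraries, the glucose transporter Slc2a1, at 1.57-fold and 2.00-fold. The enzymes Gapdh (1.41-fold and 1.54-fold) and Ldha (1.42-fold and 1.62-fold) passed it in LC427. Among growth and vessel factors 5 of 13 were higher and none lower, with Hbegf, an EGF receptor ligand, at 1.64-fold and 2.39-fold, Igf1 at 3.26-fold in both and Pgf, a relative of Vegfa, at 3.36-fold and 4.66-fold. Cells of the Cbr2 Folr2 set had more Igf1 than the members, 86.2 against 53.7 CPM in vehicle and 26.8 (5 UMIs) against 13.4 in LC427. Hbegf in the Trem1 Clec5a set was 92.6 against 85.3 in vehicle members and 14.1 against 18.6 in LC427 members.

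Lipid handling genes were higher for 5 of 16 and lower for 1, beside 3.05% and 8.25% of all genes. Lgals3 (galectin 3) was 1.89-fold and 2.56-fold higher, Plin2, the coat protein of lipid droplets, 2.11-fold and 3.07-fold, and the fatty acid receptor Cd36 2.33-fold and 3.39-fold. Matrix remodelling genes were higher for 7 of 17 and lower for none: Ctsl, a cathepsin that degrades matrix and lysosomal protein, was 2.42-fold and 2.74-fold higher and Thbs1 (thrombospondin) 1.53-fold and 2.44-fold, beside Mmp12 and Spp1 above. Haem and oxidative stress genes were higher for 4 of 13 and lower for none, the ferritin chains Fth1 (1.74-fold and 2.12-fold) and Ftl1 (1.89-fold and 2.46-fold) and the autophagy adaptor Sqstm1 (1.54-fold and 1.96-fold) beside Hmox1. Of 5 metallothionein and zinc genes besides Mt2, Mt1 alone passed, at 2.69-fold and 3.30-fold, and Mtf1, the zinc sensor that drives it, did not, at 0.95 and 1.02.

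Of 15 type I interferon genes, 7 were at least 1.5-fold higher in members in both libraries and 1 lower, beside 3.05% and 8.25% of all genes. Besides Rsad2 they included Ifit1 (5.92-fold and 3.50-fold) and Ifit2 (2.90-fold and 3.10-fold), which bind viral RNA or block its translation, and Cmpk2 (3.56-fold and 5.64-fold), the gene next to Rsad2. Of 17 interferon gamma genes none were higher and 2 lower, a share near that of all genes, with a median log2 ratio of −0.041 in vehicle and −0.77 in LC427. The 2 were Cxcl9 and Ciita, the master regulator of MHC class II (0.430 and 0.499). Of 10 MHC class II genes 7 were lower and none higher, led by H2-Ab1 at 0.622 and 0.478, H2-Aa at 0.651 and 0.573 and H2-Eb1 at 0.585 and 0.543.

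Inflammatory genes were higher for 4 of 15 and lower for 2, beside 3.05% and 8.25% of all genes. The same background holds for the other lists of this paragraph. The interleukin 1 receptor antagonist Il1rn was 1.98-fold and 2.00-fold higher, the chemokine Ccl4 1.72-fold and 2.31-fold and the neutrophil chemokine Cxcl3 2.50-fold and 4.27-fold, while Il1b was lower at 0.607 and 0.564. Cxcl3 was not highest in the members in vehicle, at 155 CPM against 322 in cells of the Trem1 Clec5a set, and in LC427 it was 287 against 206. Proliferation genes were lower for 5 of 12 and higher for none, with Stmn1 at 0.592 and 0.562, Top2a at 0.601 and 0.469 and Mki67 at 0.554 and 0.641. Stmn1 in members, at 116 and 96.1 CPM, was below the 141 and 218 of empty droplets. So was Top2a, at 76.8 and 56.8 CPM against 226 and 268. None of the 12 proliferation genes passed 1.5-fold in either direction over all 785 cells. Lysosome genes were higher for 3 of 16 (Ctsd, Ctsb and Atp6v0d2) and lower for none. Alternative activation genes were higher for 1 of 16 and lower for 2: Ccl17 had a ratio of 1.60 in both libraries, but 73.9% of its member UMIs in vehicle and 63.4% in LC427 came from 1 barcode each. Monocyte chemokine genes were higher for 2 of 11, Ccl6 (2.08-fold and 2.54-fold) and Ccl9 (1.86-fold and 2.21-fold), and lower for Ccr2. Of 8 complement and resident macrophage genes none were higher and 1 lower, Lyve1, with 1 UMI in vehicle members and 0 in LC427 members.

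Over the 5 sets in each library, the genes whose level followed the mean of the rule genes most closely were Ctsl (Pearson r = 0.97), Fabp4 (0.96), Psmd8 (0.96), Mt1 (0.95), Dusp3 (0.94), Osbpl8 (0.94), Hmox1 (0.93) and Bsg (0.93). This is a description over 10 values and 3652 genes, in which values of 1 library share its depth and its free RNA. Ctsl ran from 219 CPM in vehicle cells of the Ly6i Nos2 set to 1507 in vehicle members, and from 235 to 1254 in the same groups of LC427.

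Members differed widely among themselves. The 10% of members with most Mmp13 UMIs (39 in vehicle, 30 in LC427) held 72.5% and 72.8% of all member Mmp13 UMIs. Rsad2 was more uneven still, with 95.2% and 94.5% in the top 10%, while Arg1 was spread widely, with 31.9% and 33.4%. At least 2 of the interferon genes Rsad2, Ifit1 and Isg15 were detected in 45 of 388 vehicle members (11.6%, 8.59% to 15.2%) and 38 of 299 LC427 members (12.7%, 9.15% to 17.0%). Those members, picked in part on Rsad2 itself, held 94.1% and 89.3% of the Rsad2 UMIs. Any Rsad2 UMI was seen in 56 of 388 and 45 of 299 members.

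Members with an Mmp13 UMI (123 in vehicle, 88 in LC427) were set beside those with none (265 and 211), a split that reads 1 gene of the rule and shares its cells. Mmp12 was 5.55-fold (5.03 to 6.12) higher in the former in vehicle and 3.11-fold (2.78 to 3.49) in LC427, and Rsad2 3.85-fold (3.07 to 4.84) and 3.48-fold (2.75 to 4.42). The type I interferon list as a sum was 2.46-fold and 2.64-fold higher and the matrix remodelling list without Mmp13 1.53-fold and 1.58-fold. These were the 2 of 16 lists at least 1.5-fold higher in both libraries, and 12 lists were above 1 beyond their intervals in both. The matrix list includes Mmp12. In vehicle Mmp12 made up 2632 of 12680 CPM of that list with an Mmp13 UMI and 474 of 8303 without. In LC427 it made up 2471 of 11785.5 and 794 of 7446. The list ratio without Mmp12 was not computed. Spp1 was 1.49-fold and 1.58-fold higher, and Cxcl9 lower at 0.626 and 0.736. Hmox1 did not follow Mmp13 in the same way in both libraries, with 1.92-fold in vehicle and 0.938 in LC427. MHC class II (0.816 and 1.16) and proliferation (0.590 and 1.24) also stood on opposite sides of 1. Pmp22, a gene of the rule, was at 0.781 and 0.849, with intervals that include 1. Members with an Mmp13 UMI were deeper, with a median of 4031 against 3349 UMIs in vehicle and 2865.5 against 2768 in LC427, and the part of depth in these ratios was not tested.

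**Figure D3:**
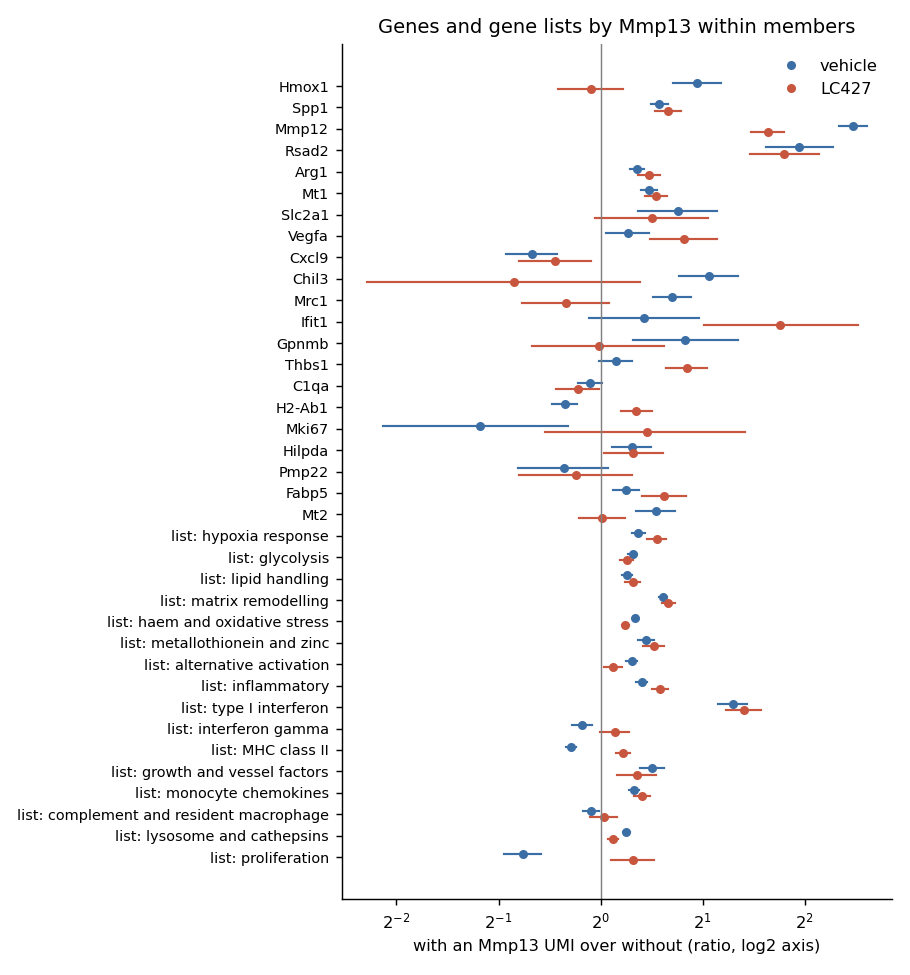
Ratio of members with an Mmp13 UMI to members without one, on a log2 axis, for single genes and for the summed gene lists without rule genes, in vehicle (blue) and LC427 (red), with 95% counting intervals. Mmp12, Rsad2 and the type I interferon list lie above 2 in both libraries, while Hmox1, MHC class II and proliferation differ in side.

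A split by other genes of the rule gave other partners. Members with an Mt2 UMI had 3.78-fold and 3.12-fold more Mt1 than those without, the 2 genes being neighbours on chromosome 8. Members with a Hilpda UMI had more of the hypoxia genes Slc2a1 (1.69-fold and 1.70-fold) and Vegfa (1.56-fold and 1.69-fold). Members with a Pmp22 UMI had more Hmox1 (1.54-fold and 2.24-fold) and Rsad2 (1.55-fold and 2.31-fold) and less of the MHC class II list (0.507 and 0.634).

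Membership is a limit set within a range. The 253 vehicle and 199 LC427 members whose set led by 1 gene had Mmp13 at 124 and 249 CPM and Hmox1 at 252 and 333. The 135 and 100 members whose set led by 2 or more had Mmp13 at 504 and 392 and Hmox1 at 488 and 549. Just outside, 384 and 240 cells in which the set tied with another had Mmp13 at 79.5 and 151 and Hmox1 at 225 and 197. Cells 1 gene behind (370 and 181) had Mmp13 at 42.3 and 77.4 and Hmox1 at 131 and 80.8. The rule reads Mmp13 itself, so its order over these steps is in part set by the rule. Hmox1, which the rule does not read, was lower at each of these steps outward in both libraries. At the other limit, the 114 and 135 members with just 2 genes of the set had Mmp13 at 58.4 and 98.1 and Hmox1 at 146 and 269. The 33 and 37 cells with 1 gene of the set and none of the others had Mmp13 at 0 and Hmox1 at 49.6 and 204.

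In the authors' deposited tables, which give a mean count and a log2 fold change per cluster for 13 vehicle and 11 LC427 clusters, Mmp13 was highest in cluster 1 of both libraries, with a mean count of 0.269 and a log2 fold change of 2.17 in vehicle, and 0.253 and 3.39 in LC427. In vehicle the authors' mean count of Mmp13 was nearly as high in cluster 13, at 0.241. In the authors' deposited tables Hmox1 was also highest in cluster 1 of both, at a mean count of 0.606 and 0.479. The authors' vehicle table had Hilpda highest in cluster 3, Pmp22 in 13, Fabp5 in 12, Mt2 in 10 and Spp1 in 7. The authors' LC427 table had Hilpda, Pmp22 and Spp1 highest in cluster 1, Fabp5 in 7 and Mt2 in 8. Rsad2 was highest elsewhere in the authors' deposited tables, in cluster 13 of vehicle and cluster 2 of LC427, and Mmp12 in cluster 13 and cluster 11. Cluster numbers of the 2 libraries come from separate clusterings, and no file here places a cell in a cluster.

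The members were a smaller share of the gate in LC427, at 6.49% (5.79% to 7.24%; 299 of 4608) against 10.3% (9.31% to 11.3%; 388 of 3783) in vehicle. Over all 785 the shares were 7.30% (6.57% to 8.08%) and 11.3% (10.3% to 12.3%). With cells thinned to 1000 UMIs before the rule was applied, they were 4.47% and 7.76% for the members. Of the rule's genes 3 were themselves lower outside the members in LC427: Fabp5 in the rest of the gate was 415 CPM in vehicle and 142 in LC427, Hilpda 165 and 66.7, and Pmp22 34.4 and 20.7. Mmp13 was 25.4 and 25.2 there, and Mt2 was higher in LC427, at 112 and 130. A smaller share cannot be told apart from a lower level of those 3 genes across the gate, or from library.

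Between LC427 and vehicle members, Mmp13 itself differed by less than its counting interval, with a ratio of 1.15 (0.991 to 1.34). Hmox1 stood at 1.21 (1.06 to 1.37) in members and 0.686 in the rest of the gate, and Thbs1 at 1.12 and 0.705. Hilpda had 0.830 and 0.404, and Fabp5 0.655 and 0.343, so these genes were closer between the libraries inside the members, which the rule chose on them, than outside. Rsad2 had 1.58 (1.35 to 1.84) and 1.13. Whether these ratios differ between members and the rest was not tested.

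Over the 7762 genes measured in members, 14.9% were at least 1.5-fold higher in LC427 (1158) and 9.03% at least 1.5-fold lower (701), with a median log2 ratio of 0.09. The rest of the gate had a median of 0.12 over 11880 genes. Scaling by the median of gene ratios shifted all log2 ratios down by 0.13 and turned the split from 62.3% higher among genes past 1.5-fold to 42.4% (745 higher, 1012 lower). Of 10024 genes measured in all 785 cells 12.8% were higher and 9.74% lower, and the share higher among those went from 56.8% to 43.9% with the same scaling (940 higher, 1203 lower). Counts of higher and lower genes therefore carry no direction of their own.

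Ccl24 and Ccl8 ranked first among the genes lower in LC427 members. Ccl8, a chemokine for monocytes and lymphocytes, stood at 2519 CPM in vehicle and 232 in LC427, a ratio of 0.0923 (0.0803 to 0.106). It was detected in 58.5% of vehicle members and 21.7% of LC427 members, and over all 785 cells its ratio was 0.0891. Empty droplets held Ccl8 at 1699 and 483 CPM, so the level in LC427 members was below that of free RNA, which itself was lower in that library. Ccl24, an eosinophil chemokine, stood at 106 and 2.07, the latter from 2 UMIs, a ratio of 0.0196 (0.00235 to 0.0716). Chil3, a chitinase-like protein of alternative activation, stood at 230 and 35.1 (0.153), Hbegf at 85.3 and 18.6 (0.218), Igf1 at 53.7 and 13.4 (0.250) and Timp1, an inhibitor of matrix proteases, at 94.9 and 31.0 (0.326). The rest of the gate had the same direction for these 6 genes, with ratios of 0.125 for Ccl8, 0.0993 for Ccl24, 0.479 for Chil3, 0.150 for Hbegf, 0.250 for Igf1 and 0.339 for Timp1. Over all 785 cells the Hbegf ratio was 0.574, and the lower side was led by the granzyme gene Gzmg (268 and 1.23 CPM) and the collagen gene Col1a1 (445 and 3.68). In the 687 members Gzmg stood at 51.4 and 1.03 and Col1a1 at 1.13 and 1.03. Empty droplets held Gzmg at 143 and 11.1 CPM, above its level in these members in both libraries.

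Higher in LC427 members were Ifi207, an interferon-inducible gene of the p200 family, at 85.9 and 240 CPM (2.79, 2.26 to 3.45), Dennd5b at 18.1 and 76.4 (4.23), and Slfn5 and Slfn2, schlafen genes induced by interferon, at ratios of 2.29 and 2.06. Ifi207 has close relatives in Ifi204 and Ifi205, between which reads may be split. The rest of the gate had 2.99 for Ifi207, 3.42 for Dennd5b, 1.95 for Slfn5 and 1.70 for Slfn2. Nol7, a nucleolar protein, stood at 207 and 429 (2.07; rest 1.98). Of the 12 genes named on the higher side 9 were at least 1.5-fold higher in the rest as well, and of the 12 on the lower side 9 at least 1.5-fold lower. In empty droplets 11 of the former 12 were higher in LC427 and all 12 of the latter lower, and the part of free RNA in these ratios was not tested. mt-Atp8, at a ratio of 0.317 and 0.310 in the rest, overlaps mt-Atp6 on the mitochondrial genome.

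For 5 of the named genes the ratio moved by over 1.5 times without 1 barcode. Gzmc, a granzyme, had a ratio of 8.07 from 75 UMIs in LC427, of which 61 lay in 1 barcode, and 1.51 (0.689 to 3.25) without it. Ccl22, a chemokine of mature dendritic cells, had 2.74, with 105 of 183 LC427 UMIs in 1 barcode, and 1.18 (0.875 to 1.58) without it. Mmp9 had 0.101 and Ctsk 0.168, with 172 of 181 and 199 of 218 vehicle UMIs in 1 barcode, and 2.02 (0.738 to 5.62) and 1.92 (0.971 to 3.79) without it. In LC427 7 of 10 Mmp9 and 14 of 20 Ctsk UMIs also lay in 1 barcode, which was kept. Slpi, a secreted protease inhibitor, had 2.26, with 42 of 120 LC427 UMIs in 1 barcode, and 1.48 without it. Ccr7, the homing receptor of mature dendritic cells, was 3.17 (2.26 to 4.48) and 2.41 without its top barcode, against 0.771 in the rest. The 5 mature dendritic cell markers, none of them at 0, summed to 155 CPM in vehicle members and 350 in LC427 members, against 155 and 99.2 in the rest of the gate. At least 2 of Ccr7, Ccl22 and Fscn1 were detected in 7 vehicle and 9 LC427 members. The part of such cells in the Ccr7 and Ccl22 ratios was not tested.

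**Figure D4:**
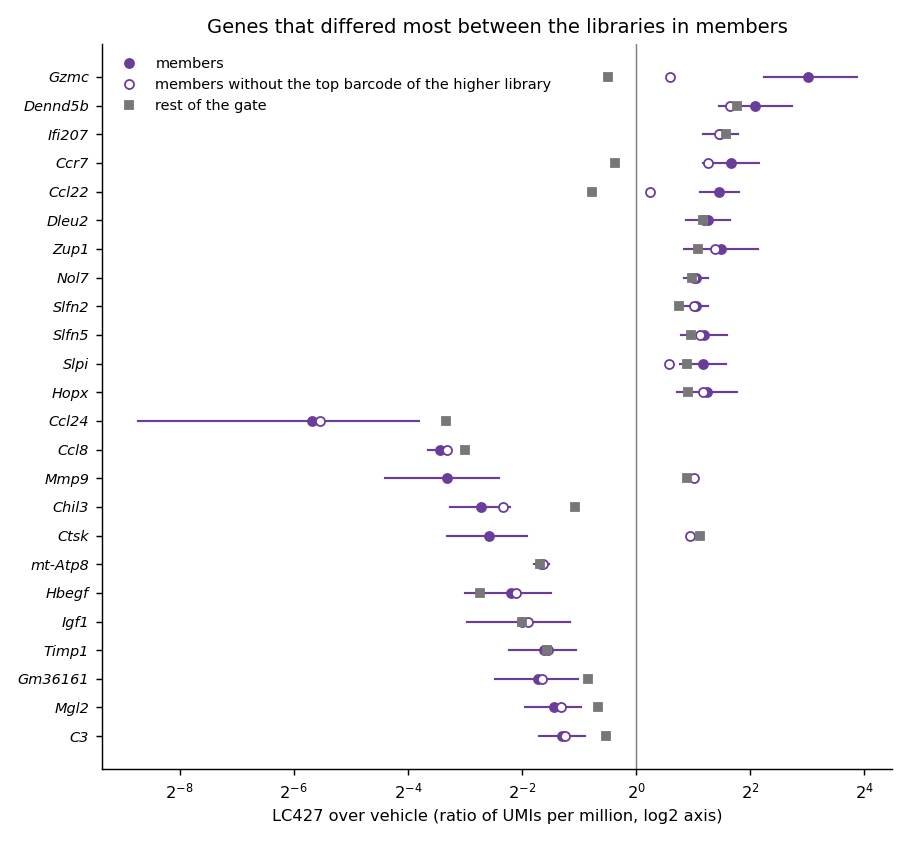
Ratio of LC427 to vehicle, on a log2 axis, for the 12 genes highest and the 12 lowest in LC427 members, with 95% counting intervals on the filled circles. Open circles leave out the barcode with most UMIs of the gene in the library where it is higher, and squares are the rest of the gate. Gzmc, Ccl22, Mmp9 and Ctsk move most between filled and open circles, and Ccl8 at 0.0923 lies near the rest of the gate at 0.125.

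As a list, alternative activation genes had a median log2 ratio of LC427 to vehicle of −0.40 in members and −0.70 in the rest of the gate, the latter the lowest of the 16 lists there, beside 0.09 and 0.12 over all genes. Of 14 measured in members 6 were at least 1.5-fold lower and 1 higher, against backgrounds of 9.03% and 14.9%. Besides Ccl24 and Chil3 the lower ones included Mrc1 (the mannose receptor), at 518 and 245 CPM (0.473), and Mgl2, a lectin, at 123 and 45.5 (0.369). The higher gene was Ccl22. Hypoxia response genes had medians of −0.29 and −0.60, with 4 of 20 lower and none higher in members and 10 of 20 lower in the rest. Over all 11880 genes measured in the rest, 748 were at least 1.5-fold lower and 1267 at least 1.5-fold higher. The lower ones in members were Ankrd37 (0.616), the oxygen sensor Egln3 (0.419), Ak4 (0.527) and Adm (0.422, from 26 and 6 UMIs). Complement and resident macrophage genes had −0.41, the lowest median in members, and −0.40 in the rest, with C1qb at 0.596, C1qc at 0.609 and Folr2 at 0.397 lower and Mertk, a receptor for dying cells, higher at 1.95. Lists compared between the libraries kept genes that the rule reads, such as Folr2 and Cx3cr1 here and Hilpda in the hypoxia list. Medians of such lists in members are therefore in part set by the rule.

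Type I interferon genes had a median of 0.31 in members and 0.22 in the rest, with 3 of 14 higher (Rsad2, Ifi204 and Ifi205) and none lower. Over all genes 14.9% were higher and 9.03% lower in LC427 members. Interferon gamma genes had −0.14 in members and 0.41 in the rest. Gbp2, a guanylate binding protein that attacks pathogen vacuoles, stood at 192 and 129 CPM in members (0.674, 0.545 to 0.830) and at 221 and 356 in the rest (1.61). Empty droplets had 208 and 312 of Gbp2, above both member levels. Socs1, the feedback inhibitor of interferon signalling, was the 1 member of 17 at least 1.5-fold lower in members, at 65.5 and 23.8 (0.362; rest 0.957), and Ciita the 1 higher (2.09). Over all 785 cells the interferon gamma median was −0.59, with 9 of 17 lower, beside 9.74% of all genes. MHC class II genes had 0.05 and 0.34, and their median in members was −0.08 with scaling by the median of gene ratios. Whether the lists differ between members and the rest was not tested.

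The other lists had medians between −0.35 and 0.11 in members. Glycolysis had a median of −0.09, lipid handling of −0.0030 and matrix remodelling of −0.08, lysosome genes had −0.12, monocyte chemokines −0.17 and proliferation −0.19. Growth and vessel factors had −0.35 and inflammatory genes −0.31. Haem genes had 0.03 and metallothionein genes 0.11, and both turned to −0.10 and −0.02 with scaling by the median of gene ratios. Within them some genes stood apart in members: Plin2 at 416 and 657 CPM (1.58, 1.42 to 1.76; rest 1.08), Cxcl3 at 155 and 287 (1.85; rest 1.08), the urokinase receptor Plaur at 276 and 444 (1.61; rest 1.10), the glutathione reductase Gsr at 20.9 and 65.1 (3.11; rest 1.96), Trem2, a lipid receptor, at 368 and 200 (0.544; rest 0.606), and Nos2, the nitric oxide synthase, at 147 and 76.4 (0.520; rest 0.760). Ccr2 had a ratio of 2.35 (rest 1.47), but its levels of 63.8 and 150 lie below the 111 and 189 of empty droplets, and with cells thinned to 1000 UMIs its log2 ratio was −0.15. Gsr also lay below empty droplets, which had 68.8 and 134. Mt3 had 57 and 2 UMIs, 48 of the former in 1 barcode.

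**Figure D5:**
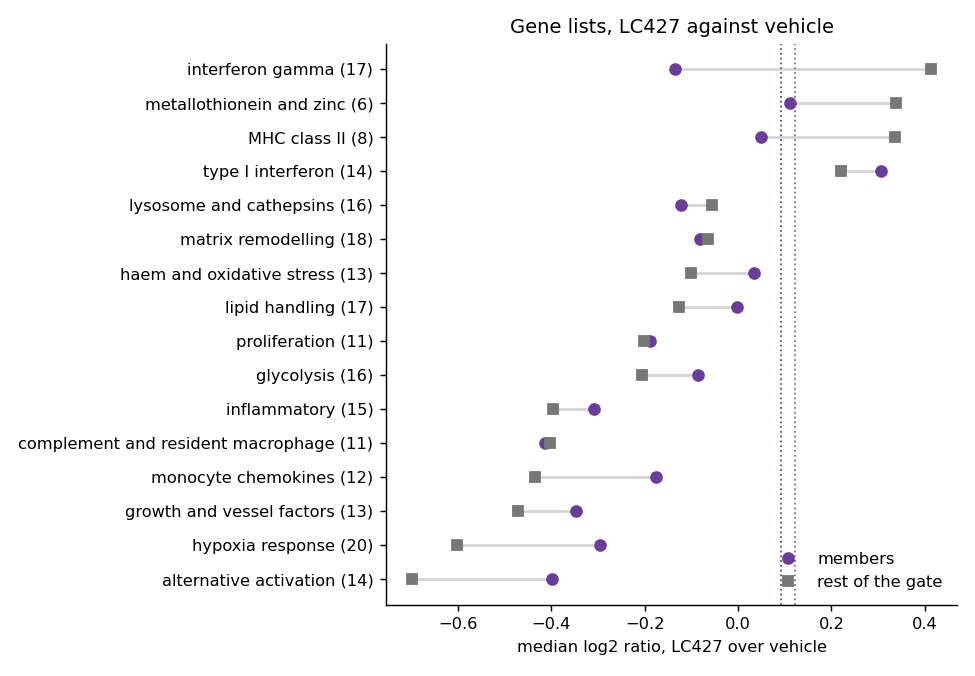
Median log2 ratio of LC427 to vehicle for 16 gene lists, in members (circles) and in the rest of the gate (squares), with the number of genes measured in members in brackets. Dotted lines are the medians over all genes, 0.09 in members and 0.12 in the rest; the interferon gamma list lies on opposite sides of 0 in the 2 groups. Alternative activation is lowest in the rest (−0.70), and complement and resident macrophage genes are lowest in members (−0.41). The lists keep genes that the rule reads.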

How the data were processed

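Droplet libraries of RNA 5′ ends were compared, 1 from vehicle and 1 from LC427 tumours, with groups taken from the treatment label. The authors deposited unfiltered UMI count matrices over 32285 genes, and 40 rows that share a symbol with another were summed here. The authors' deposited cluster tables hold a mean count, a log2 fold change and an adjusted p-value per gene and cluster, and the p-values were not used. Cell Ranger 3.0.1, Seurat 3 and GRCm38 are listed in the submitters' processing notes. Cell Ranger 4 is what made the matrices per the file headers, and which of these versions gave the counts is not settled.

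UMIs were summed over the members of each library and given as CPM, per 1000000 UMIs of that total (numpy 2.4.6, pandas 2.3.3, scipy 1.17.1; doublet scores with scanpy 1.11.5; figures with matplotlib 3.10.9). Levels had exact Poisson intervals, ratios exact conditional binomial ones and shares Clopper-Pearson ones, at 95%. With 1 library per group no test was made. Genes entered a comparison with at least 20 UMIs, and 1.5-fold was the limit for a count. The 24 genes ranked for treatment had at least 50 CPM in the higher library, a level no lower than in its empty droplets, with the order set by the interval's inner bound and at most 12 genes in each direction. Genes named for members against the rest were ranked by the smaller log2 ratio, and within lists those with most UMIs were named. Other list genes were chosen after their values were seen, some of them below those limits. The scripts were tested on simulated data.

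The members and gene lists were chosen with earlier results of these data known. The removal of barcodes with at least 2 of 10 tumour or stroma genes, the ranking without rule genes and the genes whose ratio was given without 1 barcode were chosen after the values were seen. Of the 16 type I interferon genes listed, 15 are in the files. Alternatives were thinning to 1000 UMIs, at least 2000 UMIs, 3 rule genes, a rule set short of 1 gene, other minimum counts, other scaling, a mean over barcodes, removal of high doublet scores and removal of barcodes with markers of other cells. A result for 1 gene is not reported here.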

Additional observations from a re-analysis of the deposited data

Results flagged for a closer look

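For 3 genes the ratio of LC427 to vehicle pointed one way in the 687 members and the opposite way in the rest of the gate. Each group is 1 library, and the difference between the 2 ratios was not tested. Ccl22 had a log2 ratio of 1.46 in members and −0.77 in the rest. Without the 1 LC427 barcode that held 105 of its 183 UMIs, the ratio in members was 1.18 (0.875 to 1.58), an interval that includes 1. Mmp9, a gelatinase, had −3.31 in members and 0.89 in the rest, and Ctsk, the collagen-degrading cathepsin of osteoclasts, −2.58 and 1.13. In vehicle 172 of 181 Mmp9 UMIs and 199 of 218 Ctsk UMIs were held by 1 barcode each. Without those, the ratios in members were 2.02 (0.738 to 5.62) and 1.92 (0.971 to 3.79), with intervals that include 1. The LC427 side rests on few UMIs, 7 of 10 for Mmp9 and 14 of 20 for Ctsk in 1 barcode each, and these were kept. The side of 1 on which the members stand is therefore not settled for Ccl22, Mmp9 or Ctsk.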

How the results depend on the processing

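Over all 785 cells the share of the gate was 11.3% in vehicle and 7.30% in LC427. It was 12.5% and 9.28% with at least 2000 UMIs a cell, 7.90% and 4.65% after thinning to 1000 UMIs, and 8.07% and 3.91% with at least 3 genes of the set. With the set short of 1 gene it was 10.1% and 6.30% without Mmp13, 6.22% and 4.38% without Hilpda, 8.71% and 5.67% without Pmp22, 4.88% and 4.10% without Fabp5, and 6.19% and 3.21% without Mt2. It was 10.3% and 6.49% without barcodes of tumour or stroma genes, and 6.55% in LC427 also without those with 2 markers of another cell type. For the 687 members the shares of 10.3% and 6.49% became 7.76% and 4.47% with thinning, 7.24% and 3.56% with 3 genes, 9.04% and 5.53% without Mmp13, 5.37% and 3.69% without Hilpda, 8.17% and 5.27% without Pmp22, 4.39% and 3.54% without Fabp5, and 5.89% and 3.02% without Mt2, and 8.02% in LC427 with at least 2000 UMIs. The vehicle share was the higher one under each of these settings. Among all 785 cells the 1285 higher and 976 lower genes became 470 and 356 with thinning, 384 and 309 at a minimum of 100 UMIs a gene, and 3311 and 3297 with no minimum. For the 687 members the 1158 and 701 became 515 and 385 with thinning, 222 and 159 at 100 UMIs, 3387 and 2828 with no minimum, and 745 higher with scaling by the median of gene ratios. Fewer genes or UMIs enter at thinning and at 100 UMIs.

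The alternative activation median of −0.40 was −0.77 without Fabp5 in the set and −1.07 without barcodes with 2 markers of another cell type, and over all settings run it stayed between −1.07 and −0.26. The hypoxia response median lay between −0.43 and −0.16, the type I interferon median between 0.14 and 0.44 and the interferon gamma median between −0.37 and −0.02. With the 98 cells included the type I interferon median was below 0 without Fabp5 in the set (−0.037), without Hilpda (−0.014) and as a mean over barcodes (−0.0051), and the interferon gamma median of −0.59 turned to 0.18 with thinning. For genes that turned the cause was not tested. In all 785 cells Gzmc, lower in LC427 at a log2 ratio of −2.07, had 1.54 without Hilpda in the set, 4.56 without Fabp5, 1.04 as a mean over barcodes and 3.01 without barcodes of tumour or stroma genes. Ccl22 had −1.05 with 3 genes of the set, −0.81 without Fabp5 and −1.10 without barcodes of other markers, and in the 687 members −1.13, −0.69 and −1.10. Slpi had −0.088 without Hilpda and −0.074 without Fabp5, Mmp9 had 1.15 and Ctsk 2.82 without Fabp5. In the 687 members Ccr2 had −0.15 with thinning. Removing the highest doublet scores took 220 vehicle and 320 LC427 cells, of them 14 and 22 members. No paired analysis was possible because each group has 1 library, and for the same reason no replicate could be left out.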

Other observations

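Some receptors and secreted proteins outside the gene lists were also higher in the 687 members than in the rest of the gate, as a description of the cells the rule chose. Tnfrsf9, which encodes the costimulatory receptor 4-1BB, stood at 214 CPM in vehicle members and 312 in LC427 members, against 97.6 and 83.7 in the rest. Cells of the Trem1 Clec5a set had 273 and 144, in vehicle above the members. Il7r, the interleukin 7 receptor chain better known from lymphocytes, stood at 92.1 and 158 against 39.3 and 60.7 (70.4 and 117 in the Trem1 Clec5a set), while Cd3e was at 0 in the members by the rule. F7, coagulation factor VII, stood at 78.5 and 53.7 against 36.8 and 24.0, with 73.5 and 37.9 in the Trem1 Clec5a set. On the lower side Ifitm1, an antiviral membrane protein, stood at 108 and 68.2 against 218 and 228, and Ccnd1, cyclin D1, at 142 and 123 against 242 and 236. Levels of Ifitm1 and Ccnd1 in members were below those of empty droplets, which had 133 and 139 of Ifitm1 and 183 and 220 of Ccnd1.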
